A study of Mus musculus with 6 samples.

Results

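The proteins of the cytosolic ribosome are encoded by a family of genes that nearly every cell transcribes at high levels. In RNA from mouse muscle stem cells, 75 of the 14515 genes listed met the rule used here: protein-coding type, a symbol of the form Rpl or Rps with its number, Rplp or Rpsa, and reads in all 6 libraries. All 75 genes whose type and symbol matched were read in every library, 30 encoding proteins of the small (40S) subunit and 45 encoding proteins of the large (60S) subunit. The rule used names and presence, not differences between groups. Rps3a1, Fau and Rack1 encode proteins of the same ribosome under other names, and they are given separately.

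The libraries, 2 in each group, were labelled wt, mdx and mdx/Ripk3mKO. In mdx mice the dystrophin gene Dmd is mutated, which makes them a model of Duchenne muscular dystrophy, and Ripk3 encodes a kinase that drives necroptosis, an inflammatory form of cell death. The labels do not spell out mKO, nor the cells in which Ripk3 was changed. Sample labels describe quiescent satellite cells, sorted by FACS, with 10000 to 20000 cells in each library, whereas the series text speaks of wild-type cells, activated and kept for 72 hours beneath a transwell of wt, mdx or mdx/Ripk3mKO cells; in that case the labelled genotype belongs to the upper cells. Age, sex and the number of animals are not given in the sources used here, and p-values measure only how these libraries differ from each other, which may be technical. Both mdx columns carry the same header, so mdx library numbers are names only.

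Ribosomal protein and ribosomal RNA are assembled in the nucleolus and cytoplasm into a small subunit, which reads the mRNA, and a large subunit, which joins amino acids. In vertebrates the mRNAs of these proteins begin with a C followed by a run of pyrimidines, the 5′ terminal oligopyrimidine (TOP) tract, through which the kinase complex mTORC1 and the RNA-binding protein LARP1 set how much of the mRNA is translated. Growth and exit from quiescence raise ribosome production in muscle stem cells. RNA abundance, which was measured here, does not report translation.

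The annotated start sites showed the class feature in part. RefSeq start windows (GRCm38.p6, 250 bases before to 50 after the start) were available for 55 of the 75 genes, 65 windows in all. In 13 of these 55 genes (23.6%) the annotated start was itself a C followed by 4 bases that are each C or T, against 2.96% of 9681 protein-coding genes tested. These 13 were Rpl14, Rpl15, Rpl28, Rpl35, Rpl35a, Rpl38, Rplp2, Rps10, Rps15a, Rps18, Rps21, Rps27 and Rps6. With the tract allowed to begin within 15 bases of the start, on either side, the count was 38 of 55 (69.1%), against 45.7%. None of 68 mitochondrial ribosomal protein genes with a window had the tract at its start. Among translation factors of the TOP class, described below, 1 of 12 (8.33%) had it. Starts of GENCODE transcripts gave the family a lower share, 9 of 75 (12%) against 2.27% of protein-coding genes. With those starts 4 of 77 mitochondrial ribosomal protein genes (5.19%) had the tract, so the share depends on which annotated start is read.

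The 10 windows below are from genes with the smallest p in a comparison and from Rps6 and Rpl11, and they show where the tract lies relative to the annotated start. Each has 30 bases, 15 before the start, so that base 16 is the first transcribed base, and capitals mark a pyrimidine run of at least 5 bases from its first C.
Rps6, chr4:86857353-86857382, minus strand: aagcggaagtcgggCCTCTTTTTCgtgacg
Rpl35, chr2:39005117-39005146, minus strand: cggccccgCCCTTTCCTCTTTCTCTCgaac
Rps26, chr10:128626492-128626521, minus strand: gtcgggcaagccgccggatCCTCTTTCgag
Rpl13a, chr7:45128731-45128760, minus strand: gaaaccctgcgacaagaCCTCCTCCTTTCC
Rps2, chr17:24720048-24720077, plus strand: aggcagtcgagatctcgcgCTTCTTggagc
Rplp0, chr5:115559452-115559481, plus strand: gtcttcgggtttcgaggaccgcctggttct
Rpsa, chr9:120127751-120127780, plus strand: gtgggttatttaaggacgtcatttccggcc
Rpl11, chr4:136053379-136053408, minus strand: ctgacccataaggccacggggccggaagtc
Rps25, chr9:44407699-44407728, plus strand: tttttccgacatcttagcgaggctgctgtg
Rps3, chr7:99483695-99483724, minus strand: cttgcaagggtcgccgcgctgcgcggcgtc
In Rps6 and Rpl35 the run spans the annotated start. In Rps26, Rpl13a and Rps2 it begins a few bases after it, and the other 5 windows, of Rplp0, Rpsa, Rpl11, Rps25 and Rps3, hold no whole run of this kind. For Rplp0 and Rpl11 a run begins in the last bases printed and continues past them. Both were therefore counted above as having a tract within 15 bases of the start. No match says only that these letters are not in this window.

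Other motifs were searched on both strands of the whole 300-base windows. CCGGAAG, the core bound by ETS-family factors, was found in 23 of 55 genes (41.8%), against 20.0% of protein-coding genes and 36.8% of mitochondrial ribosomal protein genes. TCTCGCG was found in 13 of 55 (23.6%), against 6.14%, and Rps2, Rps6 and Rpl35 were among them. TATAAA was found in 6 of 55 (10.9%), against 8.68%. A match is a description of the sequence and not a bound site. The 13 genes with the tract at the start had a median level of 6145 scaled counts per kb, and the 42 without had 8119.

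Levels are given as scaled counts, which are the deposited read counts after scaling between libraries and rounding. Their totals were 20611974 to 21037153 per library. To compare genes, the mean scaled count over 6 libraries was divided by the length of a representative transcript in kb. The 75 genes had a median of 7294 per kb, with quartiles of 4541 and 12545. Small subunit genes had a median of 7518 and large subunit genes 7294. Among all genes by mean scaled count, 3 of the 75 were in the top 100 and 46 in the top 1000.

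The order of levels ran over a wide range. Rplp1, an acidic protein of the large subunit stalk that recruits elongation factors, was highest at 35151 per kb, with libraries from 32742 to 38148. Rps2, at the entry of the mRNA channel, had 26961 per kb (25032 to 29095 over libraries). Rpl4, which lines the tunnel through which the new protein leaves, had 26009 per kb (25308 to 26805). These last libraries overlapped, so the order of Rps2 and Rpl4 lies within their spread. Rps15 had 22619 and Rpl41, a very short basic protein, 22158, and their libraries overlapped too. The order below Rplp1 also depends on the length used. With the union of all exons as length, Rpl4 had 19931 per kb, Rps15 17951, Rps2 14703 and Rpl41 8290.

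At the low end, Rpl15 had 1532 per kb, Rps20 1560, Rps10 1777 and Rps15a 1300. The place of Rps15a rests on length, since its representative transcript has 5179 bases, where the median for the 75 genes is 830. Rps20 likewise has a transcript of 3706 bases. With the union of all exons as length, an alternative chosen after seeing the data, the median of the 75 genes was 3260 per kb, Rps15a had 1073 and Rps10 682, and ranks by both lengths correlated at a Spearman rho of 0.84 over the 75 genes. By that length Rpl30, at 665 per kb, was the lowest apart from Rpl23a. With the representative transcript as length, and apart from Rpl23a, the highest level was 27.0 times the lowest.

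**Figure D1:**
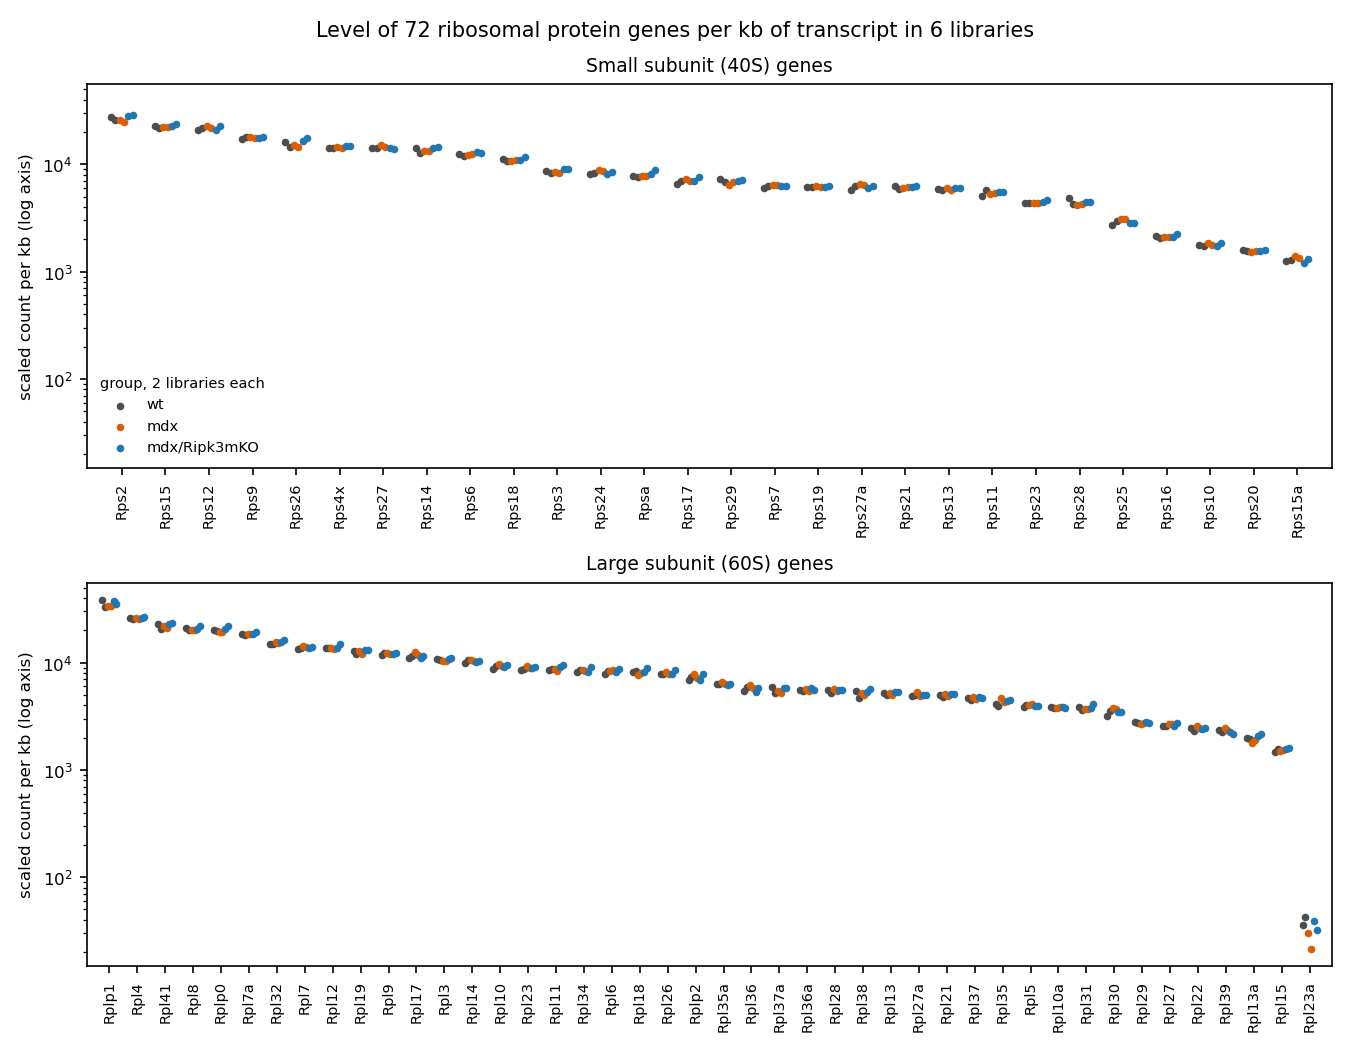
Scaled counts per kb of transcript (log axis) of 28 of the small subunit genes (top) and 44 of the large subunit genes (bottom), each point 1 library coloured by group, genes ordered by mean. The spread between libraries of a gene is small beside the range between genes, and Rpl23a stands alone below 100 per kb.

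Rpl23a, a large subunit protein at the exit of the tunnel, stood apart from the other 74 genes. It had 20 and 24 scaled counts (wt), 17 and 12 (mdx) and 22 and 18 (mdx/Ripk3mKO). That is 33.6 per kb, where the next lowest gene had 1300. Counting error alone reached 30.2% for Rpl23a in its lowest library and stayed below 3% for each other member.

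Many copies of ribosomal protein mRNAs lie in the mouse genome as processed pseudogenes, and reads from such stretches fit several places. To describe this, every 50-base stretch of each representative transcript was looked up in the transcripts of all other GENCODE genes. In 74 of 75 genes at least 1 such stretch was also in another gene, and in 44 genes this held for more than 50% of stretches, with a median of 53.6%. With 100-base stretches, added after seeing the data, the median was 41.3%. Rps27 had the highest share, 98.6%.

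Coding stretches of 60 bases show such shared sequence in Rpl23a, read at a low level, and in Rps27, read at a high level. For each gene the stretch found in the most other genes was chosen, so the counts below are the largest for that gene. The bases are printed in lower case because none differs between the copies counted.
Rpl23a, GRCm38 chr11:78181494-78181553, minus strand: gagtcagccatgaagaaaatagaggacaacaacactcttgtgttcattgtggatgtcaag
Rps27, GRCm38 chr3:90213221-90213280, minus strand: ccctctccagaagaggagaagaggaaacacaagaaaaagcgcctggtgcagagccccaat
The Rpl23a stretch occurred in 17 other genes, 16 of them pseudogenes. That of Rps27 occurred in 3 other genes, 2 of them pseudogenes. Across its whole transcript Rpl23a shared 85.7% of its 50-base stretches with 29 other genes, 28 of them pseudogenes.

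Shared sequence and level showed no rank relation across the family. Over the 75 genes the Spearman rho between the share of 50-base stretches and the level per kb was 0.05, a description over genes that share libraries. Rps27 was read at 14423 per kb and Rpl35, with 95.1% shared, at 4335 per kb, while Rpl23a with 85.7% was at 33.6. How reads that fit several places were counted was not given in the sources used here, and the part of shared sequence in the value of Rpl23a was not tested. All family levels are uncertain to the extent that such reads were lost or split.

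**Figure D2:**
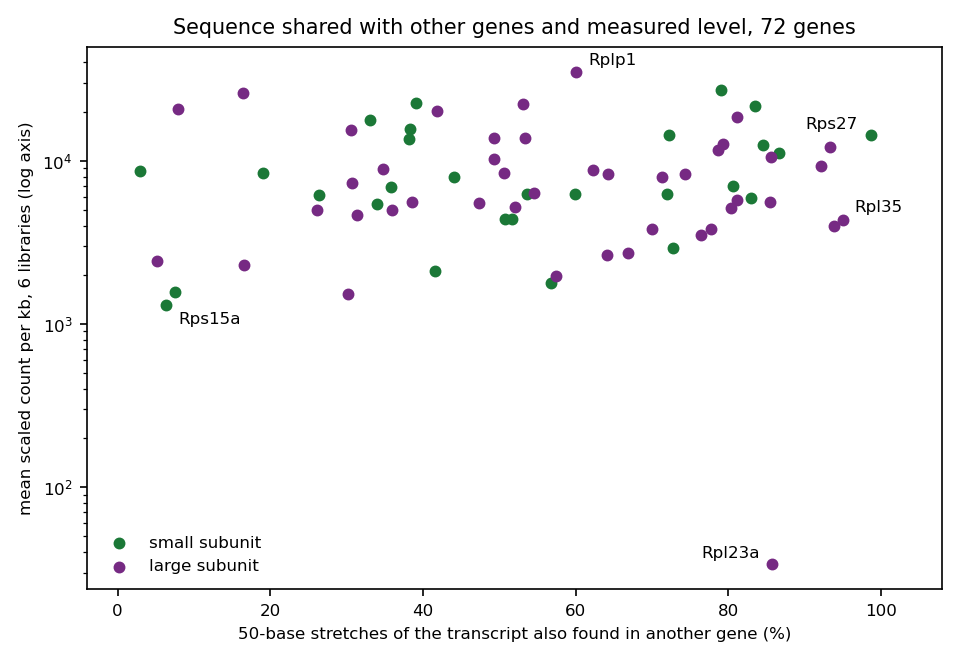
Share of 50-base stretches of each transcript that also occur in another gene (x, %) against the mean scaled count per kb over 6 libraries (y, log axis), 72 genes coloured by subunit. No slope is visible over the genes drawn, and Rpl23a lies alone at 33.6 per kb with 85.7% shared.

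Before the groups are compared, the labels were checked. Ripk3 had 45 and 32 scaled counts (wt), 23 and 36 (mdx) and 17 and 33 (mdx/Ripk3mKO), so the groups overlapped. The part of Ripk3 that was changed was not given, and these counts therefore may not check the label. Dmd had 324 and 432 (wt), 531 and 692 (mdx) and 474 and 294 (mdx/Ripk3mKO); reads over a gene do not test a point mutation or a deletion elsewhere in it. In mdx/Ripk3mKO library 1, Xist had 6918 scaled counts against 164 to 666 in the other 5 libraries. Ddx3y, a Y-linked gene, had 373 against 1543 to 1785. The Y-linked genes Eif2s3y, Kdm5d and Uty had 374, 216 and 167 there. In the other 5 libraries they had 1377 to 1551, 850 to 921 and 641 to 757. Cells of mdx/Ripk3mKO library 1 may thus differ in sex, in whole or in part, from those of the other 5 libraries. Both comparisons with mdx/Ripk3mKO hold this library, and the part of sex in the family's values was not tested. Rpl10, Rps4x, Rpl36a and Rpl39 lie on the X chromosome. They summed to 1207 to 1257 CPM (scaled counts for every 1000000 of the library total) over all libraries, with 1223 in mdx/Ripk3mKO library 1.

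Marker lists described the cells. Of 7 satellite cell and myoblast markers 6 were listed, summing to 3880 to 4253 CPM, with Pax7, Myf5 and Myod1 among them and Chodl not listed. All 6 genes of muscle differentiation were read, summing to 13126 and 12644 (wt), 15332 and 13599 (mdx) and 14650 and 11542 (mdx/Ripk3mKO). All 3 of dividing cells were read too, at 1329 to 1610. Over the libraries Myog had 1300 to 1698 CPM, Myh3 5339 to 7808 and Mki67 660 to 820, beside 84.6 to 102.8 for Pax7. The labels speak of quiescent cells and the series text of activated cells, and which account holds was not tested. Macrophage markers (2 of 6 listed, without Adgre1, Csf1r, Ptprc and Lyz2) summed to 1.33 to 2.03 and endothelial markers (3 of 5) to 0.916 to 1.46. Fibro-adipogenic markers (3 of 5) summed to 204 to 262 and pericyte markers (3 of 5) to 109 to 128. Col3a1 made most of the fibro-adipogenic sum, at 201 to 258 CPM. Pdgfra had only 1.16 to 1.55 and Ly6a 1.11 to 1.94. In the pericyte list Cspg4 had 57.5 to 85.4 CPM, Abcc9 29.6 to 49.97 and Rgs5 0.530 to 1.31. None of 5 lymphocyte and 5 erythroid markers was listed. In bulk libraries fewer cells of a type and less RNA per cell cannot be told apart.

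Ribosomal protein mRNA took a nearly constant part of the library. The 75 genes summed to 2.92% and 2.88% of scaled counts (wt), 2.91% and 2.91% (mdx) and 2.93% and 3.06% (mdx/Ripk3mKO). Means were 2.90% ± 0.0293 (SD, n = 2) in wt, 2.91% ± 0.00378 (SD, n = 2) in mdx and 2.995% ± 0.0957 (SD, n = 2) in mdx/Ripk3mKO. The mdx/Ripk3mKO libraries lay above the other 4, library 1 barely and library 2 clearly. With 2 libraries against 2, an exact permutation test cannot give a p below 0.333. The ratio of large to small subunit mRNA was 1.497 to 1.506 over the 6 libraries, so the sums for the 2 subunits kept the same proportion.

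**Figure D3:**
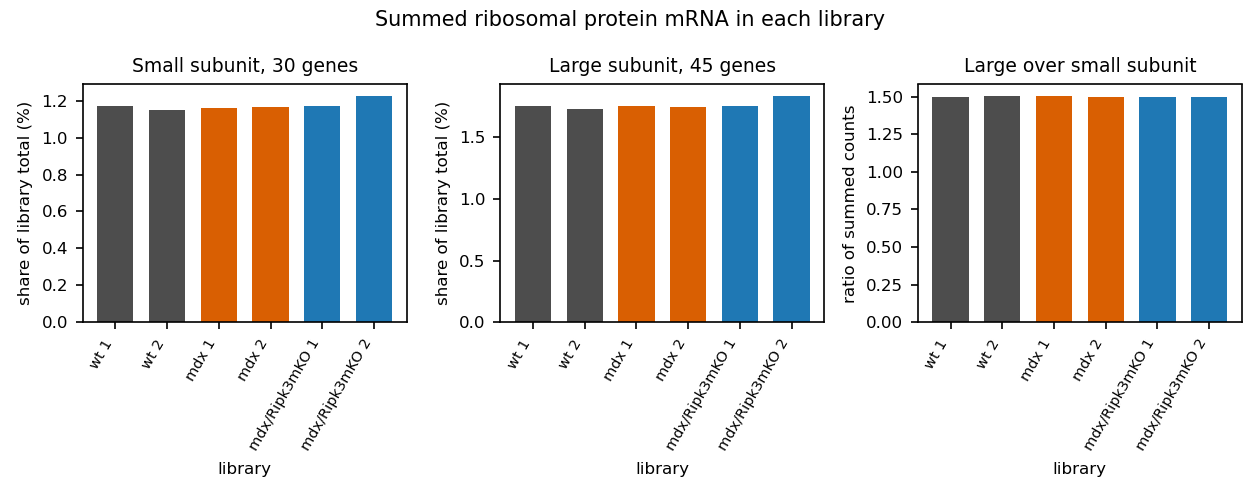
Summed scaled counts of the 30 small subunit genes and the 45 large subunit genes as a share of each library's total (%), and the ratio of the sums, 1 bar per library coloured by group. Bars start at 0, and mdx/Ripk3mKO library 2 is the tallest in the first 2 panels, while the ratio stays between 1.497 and 1.506.

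Single genes were steady as well. For the 74 genes with a mean of at least 1000 scaled counts, the median SD over 6 libraries was 0.05 on the log2 scale, and 49 of them lay below 0.06, the median of the 4451 genes tested at that level. Rps19, which is mutated in Diamond-Blackfan anaemia, was the steadiest, with 3922 and 3929 scaled counts (wt), 3978 and 3926 (mdx) and 3897 and 3979 (mdx/Ripk3mKO). Its highest library was 1.02 times its lowest. Leaving out Rpl23a, the largest such ratio was 1.22, for Rpl38, a small protein at the surface of the large subunit.

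The highest and lowest values were spread unevenly over the libraries. Of the 75 genes, 36 (48%) had their highest value of 6 in mdx/Ripk3mKO library 2, where 16.2% of all tested genes did. In that library 63 of the 75 genes lay above their own mean, with a median deviation of 0.04 on the log2 scale, against 0.003 for all genes. In mdx/Ripk3mKO library 1, 7 genes had their highest value and the median deviation was 0.002. Library 1 of mdx held the highest value of 21 genes (28%), against 17.8% of all genes. The wt libraries held the lowest value of 24 genes (32%) in library 1 and 26 (34.7%) in library 2, against 14.7% and 14.8% of all genes. The sum of the 6 markers of muscle differentiation was lowest in mdx/Ripk3mKO library 2, at 11542 CPM, and the next lowest library had 12644. Myh3, the embryonic myosin heavy chain, had 5339 CPM there and 6168 to 7808 in the other 5. Myog was not lowest there, with 1592 CPM against 1438 in wt library 2 and 1300 in mdx library 2. The part of this marker level in the family's values was not tested.

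**Figure D4:**
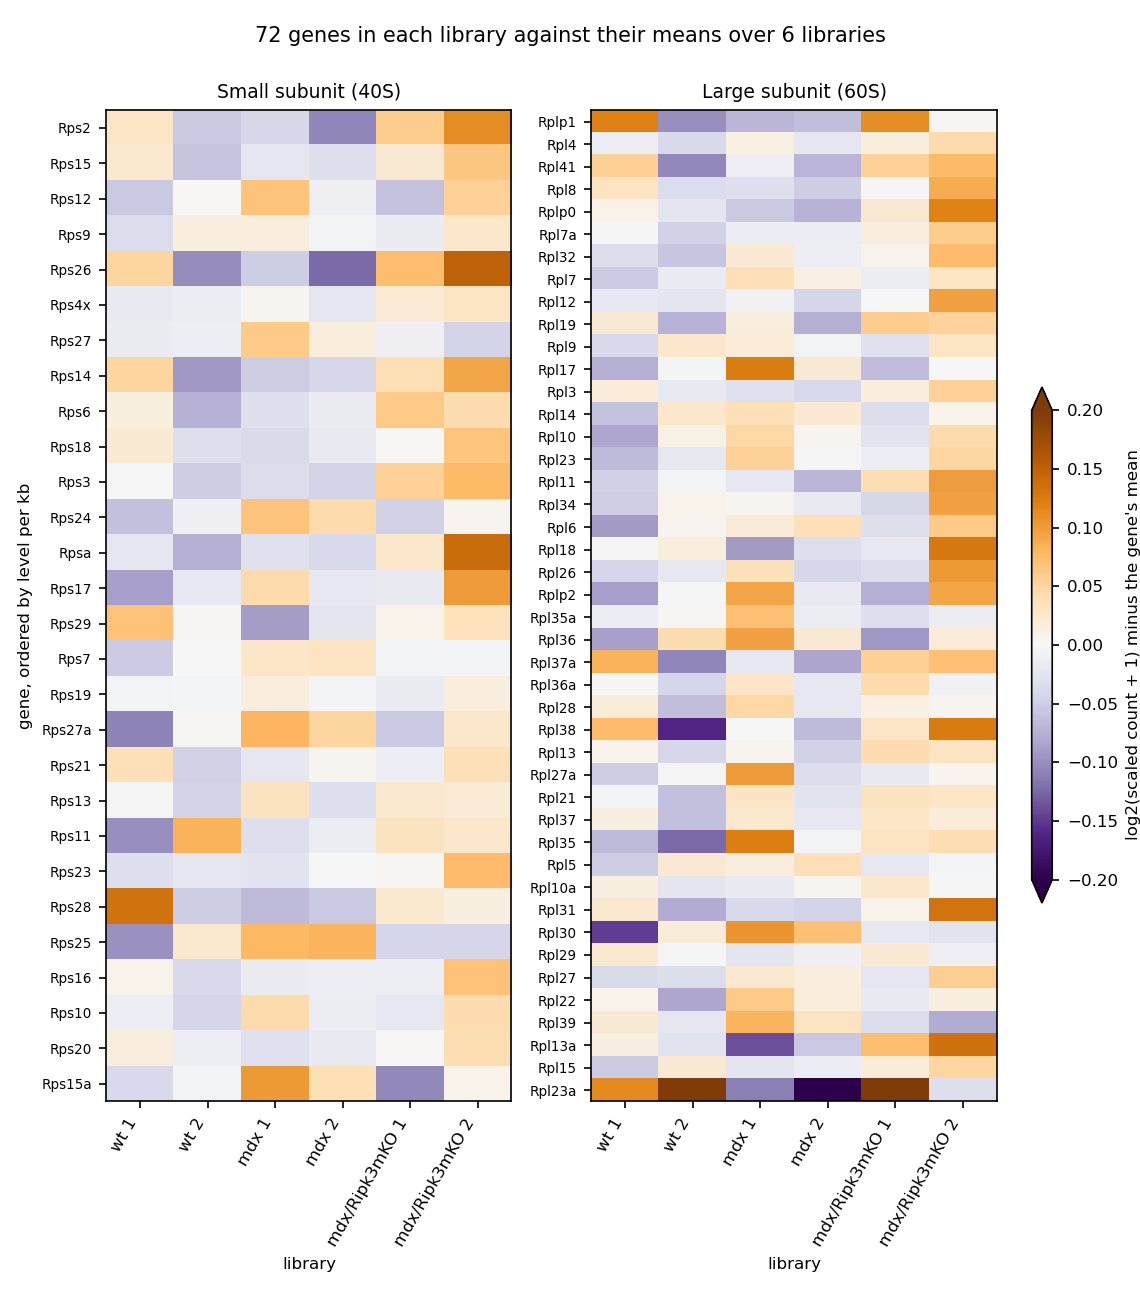
Each of 72 genes (rows, by subunit and ordered by level per kb) in each of 6 libraries (columns), coloured by log2(scaled count + 1) minus the gene's own mean over the 6 libraries, on a scale that ends at ±0.2. The column of mdx/Ripk3mKO library 2 is mostly orange (63 of the whole family of 75 genes lay above their mean); Rpl23a exceeds the scale.

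In the libraries labelled mdx, compared with wt, no ribosomal protein gene passed the test. Tests were made with limma on log2(scaled count + 1) over all 14077 genes that passed a filter on low values, with a threshold of 0.05 on the Benjamini-Hochberg adjusted p, and all 75 genes were among those tested. Over all genes the test called 1 (0.0071%; 103 without either mdx/Ripk3mKO library and 0 without any 1 of the other 4). Of the 75 genes, 45 were higher and 30 lower, with a median log2 fold change of 0.01 where the median of all genes was -0.002. Leaving out Rpl23a, fold changes ranged from 0.932 to 1.11. In 74 of 75 genes the unadjusted 95% interval lay within a 1.5-fold change either way, as it did in 72.0% of all genes.

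At an unadjusted p under 0.05, 3 of the 75 genes (4%) were higher, against a background of 3.44%, and 0 were lower, against 3.02%. Both mdx libraries lay above both wt libraries in 17 genes (22.7%), where 17.6% of all genes did so, and below them in 9 (12%), where 18.3% did. When fold changes were corrected for GC content and exon length, 33 of 75 genes were higher and the median log2 fold change was -0.005, so the sign of the median depends on that correction. Beside this, 5 of the 6 muscle differentiation markers were higher, with a median of 0.19 and 0 passing, and their part in the family's values was not tested.

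The smallest p belonged to Rpl35, which sits at the tunnel exit and binds factors that act on the new protein. It had 3913 and 3757 scaled counts (wt), 4458 and 4079 (mdx) and 4185 and 4216 (mdx/Ripk3mKO). All mdx libraries were above all wt libraries, and the log2 fold change was 0.15 ± 0.06 (SE; limma, adjusted p = 0.651, n = 2 against 2). Without mdx library 1 it was 0.09. Exons of Rpl35 overlap those of Arpc5l, and 95.1% of its 50-base stretches occur in other genes.

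Rpl30, a small large-subunit protein that contacts the small subunit, had the next smallest p, with 1810 and 2029 (wt), 2158 and 2107 (mdx) and 1977 and 1967 (mdx/Ripk3mKO). Its libraries of wt and mdx did not overlap, with a log2 fold change of 0.15 ± 0.06 (SE; limma, adjusted p = 0.709). That value was 0.07 without wt library 1 and 0.24 without wt library 2.

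Rps27a, Rps25 and Rpl17 were also among the 6 genes with the smallest p. Rps27a is made as a fusion with ubiquitin and had 4566 and 4923 (wt), 5196 and 5091 (mdx) and 4737 and 5008 (mdx/Ripk3mKO). Rps25, a small subunit protein that some viral and cellular mRNAs need for internal initiation, had, in the same order, 3474 and 3781, 3926 and 3935, and 3607 in both mdx/Ripk3mKO libraries. Rpl17, which lies along the tunnel exit, had 8547 and 8977, then 9810 and 9145, and 8606 and 9003. For all 3 both mdx libraries were above both wt libraries, with log2 fold changes of 0.12, 0.12 and 0.11 and adjusted p of 0.776, 0.776 and 0.780 by limma. Leaving out wt library 1 gave 0.06 for Rps27a and for Rps25, leaving out wt library 2 gave 0.18 for Rps25, and leaving out mdx library 1 gave 0.06 for Rpl17. Exons of Rps25 overlap those of Ccdc84 and Trappc4.

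Between mdx/Ripk3mKO and mdx, again, 0 of the 75 genes passed, while 29 of all genes did (0.206%; 278 without mdx/Ripk3mKO library 1, 13 without mdx library 1, 1 without mdx library 2 and 2 without either wt library). The comparison shares the mdx libraries with the one before, and its values are given side by side with no test of their likeness. Of the 75 genes, 47 were higher and 28 lower, with a median log2 fold change of 0.03 (all genes, -0.002). At an unadjusted p under 0.05, 8 genes (10.7%) were higher, against 5.77% of all genes, and 2 (2.67%) were lower, against 5.87%. Both mdx/Ripk3mKO libraries lay above both mdx libraries in 34 genes (45.3%), where 21% of all genes did so, and below them in 15 (20%), where 20.3% did. Beside this, 5 of the 6 muscle differentiation markers were lower, with a median of -0.14 and 0 passing. Cspg4, in the pericyte list, was higher, with 64.4 and 57.5 CPM in mdx and 82.5 and 82.2 in mdx/Ripk3mKO, a log2 fold change of 0.44 ± 0.07 (SE; limma, adjusted p = 0.0289), while the other two of that list in the table, Abcc9 and Rgs5, were lower and did not pass. The part of these markers in the family's values was not tested. Without mdx/Ripk3mKO library 2 the median was 0.02 with 42 of 75 genes higher, and without library 1 it was 0.05 with 56 higher.

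The 6 genes with the smallest p were all higher in mdx/Ripk3mKO. Rpl13a, known also as a protein that leaves the ribosome to silence inflammatory mRNAs, had 1862 and 1973 scaled counts in mdx and 2159 and 2251 in mdx/Ripk3mKO, beside 2068 and 2011 in wt. The 2 mdx libraries were the lowest of the 6 and the log2 fold change was 0.20 ± 0.06 (SE; limma, adjusted p = 0.195). Rps26, at the exit of the mRNA channel, had 11072 and 9968 (wt), 10315 and 9810 (mdx) and 11249 and 11856 (mdx/Ripk3mKO). The mdx/Ripk3mKO libraries were above the other 4, with 0.20 ± 0.06 (SE; limma, adjusted p = 0.195).

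Rps2, a small subunit protein near the mRNA entry, had 27435 and 25880 (wt), 26113 and 24982 (mdx) and 27996 and 29037 (mdx/Ripk3mKO), at 0.16 ± 0.05 (SE; limma, adjusted p = 0.233). Its mdx/Ripk3mKO libraries were above all others.

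Rplp0, the base of the large subunit stalk, and Rpsa, which is both a small subunit protein and a laminin receptor, were also among the 6. Rplp0 had 27545 and 26909 (wt), 26374 and 26036 (mdx) and 27808 and 29748 (mdx/Ripk3mKO). Rpsa had, in the same order, 15230 and 14682, 15155 and 15047, and 15761 and 17045. In both genes mdx/Ripk3mKO library 2 was well above library 1, which was above all wt and mdx libraries. Log2 fold changes against mdx were 0.13 ± 0.05 for Rplp0 and 0.12 ± 0.05 for Rpsa (SE; limma, adjusted p = 0.302 and 0.393), and 0.09 and 0.06 without mdx/Ripk3mKO library 2. The 2 genes lower at an unadjusted p under 0.05 were Rps25 and Rps15a, at -0.12 each.

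Compared with wt, 65 of the 75 genes were higher in mdx/Ripk3mKO and 10 lower, with a median log2 fold change of 0.05 (all genes, 0.001). No gene of all tested passed (0%; 20 without mdx/Ripk3mKO library 2, none of them a member). At an unadjusted p under 0.05, 4 of the 75 genes (5.33%) were higher, against 1.24% of all genes, and 0 were lower, against 2.09%. Both mdx/Ripk3mKO libraries lay above both wt libraries in 27 genes (36%), where 14.4% of all genes did so, and below them in 1 (1.33%), where 15.1% did. Without mdx/Ripk3mKO library 2 the median was 0.02 with 52 of 75 genes higher, and without library 1 it was 0.07 with 67 higher, so the size of this shift rests on library 2. With quantile normalization 55 genes were higher, and with the GC and length correction 53.

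Among the 6 genes with the smallest p here, Rpsa was at 0.13 ± 0.05, Rps26 at 0.14 ± 0.06 and Rpl35 at 0.13 ± 0.06 (SE; limma, adjusted p = 1 each). Rps2 was at 0.10 ± 0.05 and Rps3, which lies at the mRNA entry and also acts in DNA repair, at 0.09 ± 0.05 (SE; limma, adjusted p = 1 each). Without wt library 2, Rps26 was at 0.06 and Rps2 at 0.06; without wt library 1, Rps26 was at 0.21, and without mdx/Ripk3mKO library 2, Rpsa was at 0.08. Rps3 had 16478 and 15901 scaled counts (wt), 16081 and 15975 (mdx) and 17098 and 17394 (mdx/Ripk3mKO). Rps26, Rpl35, Rpsa, Rps2 and Rps3 did not overlap between wt and mdx/Ripk3mKO. An F-test over the 3 groups called 0 of the 75 genes and 11 of all genes (0.0781%); Rps26 had the smallest p of the 75 (limma, adjusted p = 0.462). The F-test gave 7 of the 75 genes (9.33%) an unadjusted p under 0.05, against 7.87% of all genes.

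**Figure D5:**
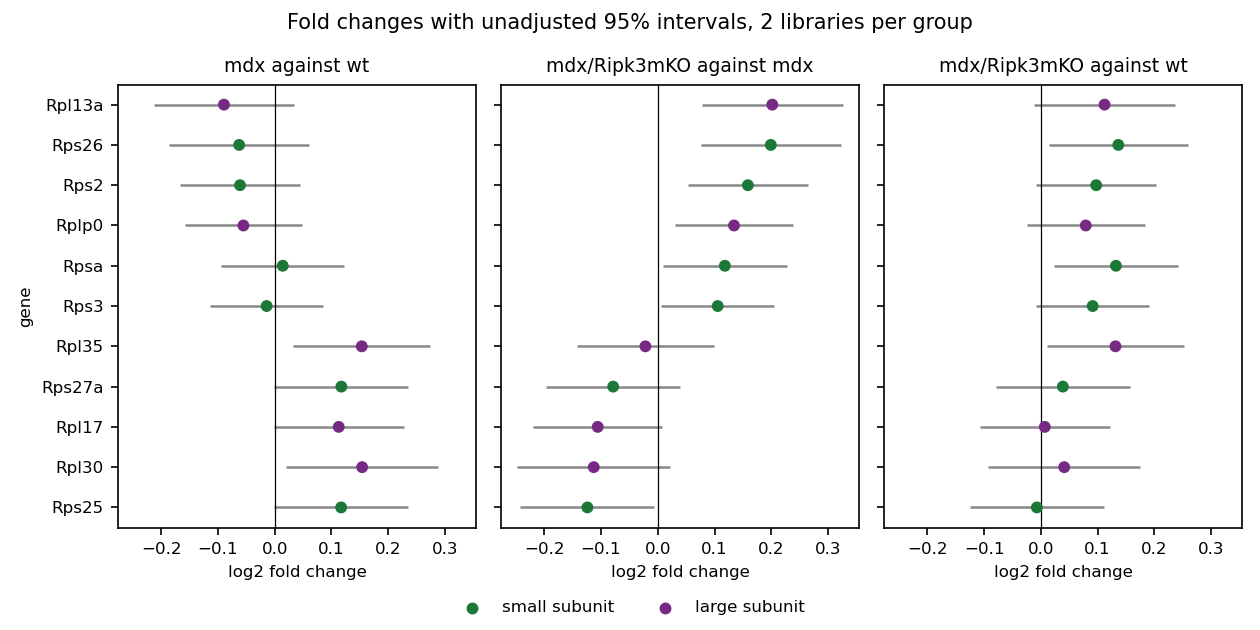
Log2 fold changes (points, coloured by subunit) with unadjusted 95% intervals (lines) of 11 genes that were among the 6 with the smallest p in any of 3 comparisons, ordered by the middle panel, 2 libraries per group. Many intervals reach or cross 0 and none of the genes passed the adjusted threshold; the panels share libraries pairwise.

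Roles within the ribosome gave no group in which a gene passed. The 7 small subunit genes listed for the mRNA path were Rps2, Rps3, Rps14, Rps15, Rps23, Rps26 and Rps28. This list was chosen with earlier results of these data known and does not hold every protein along the path. Its median log2 fold change was -0.02 in mdx against wt, 0.11 in mdx/Ripk3mKO against mdx and 0.09 in mdx/Ripk3mKO against wt. Of all 30 small subunit genes, 15 (50%) were without overlap higher in mdx/Ripk3mKO than in mdx and 7 (23.3%) lower. Over all genes 21% and 20.3% were. All 7 genes of the list were among the higher, as were 45.3% of the family. Their summed level was 3895 and 3673 CPM (wt), 3674 and 3666 (mdx) and 3903 and 4092 (mdx/Ripk3mKO), so wt library 1 lay beside mdx/Ripk3mKO library 1. The 4 stalk genes (Rplp0, Rplp1, Rplp2 and Rpl12) had medians of -0.03, 0.10 and 0.06. Rplp1 had 19036 and 16338 (wt), 16676 and 16755 (mdx) and 18906 and 17530 (mdx/Ripk3mKO), and its 2 wt libraries held both the highest and the lowest value. Rplp2 alone of the 4 was higher in mdx than in wt, at 0.08 ± 0.06 (SE; limma, adjusted p = 0.856).

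The 8 genes of the polypeptide exit tunnel had medians of 0.02, 0.04 and 0.06, with Rpl17, Rpl35 and Rpl39 lower and 5 genes higher in mdx/Ripk3mKO against mdx. Rpl5 and Rpl11, which with 5S RNA form the particle that binds the p53 regulator Mdm2 when ribosome assembly fails, differed in sign: in mdx/Ripk3mKO against mdx Rpl5 was at -0.04 ± 0.05 and Rpl11 at 0.12 ± 0.05 (SE; limma, adjusted p = 0.821 and 0.395). Rps6, the substrate of S6 kinase downstream of mTORC1, had 11060 and 10412 (wt), 10735 and 10847 (mdx) and 11434 and 11295 (mdx/Ripk3mKO). Its mdx/Ripk3mKO libraries were the highest, at 0.07 ± 0.05 against mdx (SE; limma, adjusted p = 0.595). The 15 genes listed here as mutated in Diamond-Blackfan anaemia, an inherited failure of red cell formation, had medians of 0.04, -0.002 and 0.02, with 0 passing. The list may not be complete.

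Fold changes were also set beside base composition. Over the 75 genes the Spearman rho of GC content with the log2 fold change was -0.31 in mdx against wt, 0.27 in mdx/Ripk3mKO against mdx and 0.12 in mdx/Ripk3mKO against wt. Over all protein-coding genes tested it was -0.18, 0.32 and 0.22. The points share 6 libraries, so these are descriptions with no p, and the part of base composition in the fold changes of single genes was not tested. The family's median GC content was 51.3%, near the 50.5% of protein-coding genes tested, with a range of 41.3% to 60.8%.

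Genes around the family were read from lists of 223 tested genes in all, described here and below, and 0 passed in any of the 3 comparisons (limma). At an unadjusted p under 0.05, 4 (1.79%) were higher and 4 (1.79%) lower in mdx against wt, where 3.44% and 3.02% of all genes were. In mdx/Ripk3mKO against mdx 13 (5.83%) were higher, close to the 5.77% of all genes, and 2 (0.897%) lower, against 5.87%. In mdx/Ripk3mKO against wt 4 (1.79%) were higher and 1 (0.448%) lower, against 1.24% and 2.09%. Rack1, a scaffold on the small subunit, had 20887 and 20358 scaled counts (wt), 19920 and 19827 (mdx) and 21343 and 21750 (mdx/Ripk3mKO). It was lowest in both mdx libraries and highest in both mdx/Ripk3mKO libraries, at 0.12 ± 0.05 between them (SE; limma, adjusted p = 0.343). Rps3a1 and Fau were at -0.04 and 0.07 in that comparison. Of the 6 paralogs listed, Rpl7l1 had 1189 per kb and Rps27l, a p53 target, 3680, whereas Rpl22l1 had 887, Rps4l 168, Rpl36al 66.5 and Rps27rt 33.9. Their summed level was 257 to 277 CPM, beside 28822 to 30628 for the 75 genes. Named ribosomal protein pseudogenes, 41 in the table, summed to 47.1 to 54.3 CPM.

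Translation factors whose mRNAs also carry TOP tracts were measured at high levels. The 18 genes had medians of -0.01, 0.02 and 0.03 in the 3 comparisons in the order above. Eef2, which moves the ribosome along the mRNA, had 71172 to 76725 scaled counts over libraries, and Tpt1, a growth-related protein, had 20318 and 20977 (wt), 22773 and 22125 (mdx) and 22582 and 21447 (mdx/Ripk3mKO). Tpt1 was without overlap higher in mdx than in wt, at 0.12 ± 0.05 (SE; limma, adjusted p = 0.70), as was Eef1b2, an exchange factor of elongation, at 0.12 ± 0.05 (SE; limma, adjusted p = 0.668). The 6 non-coding hosts of small nucleolar RNAs had medians of -0.005, -0.04 and -0.06, with Gas5 at -0.14 ± 0.06 in mdx/Ripk3mKO against mdx (SE; limma, adjusted p = 0.415).

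The machinery that makes ribosomes held no called gene either. The 38 biogenesis factors had medians of -0.04, 0.04 and 0.02. In mdx against wt 30 of the 38 were lower, and in mdx/Ripk3mKO against mdx 27 were higher; the comparisons share the mdx libraries. Eif6, which keeps the subunits apart until the large one is mature, had 1802 and 1722 (wt), 1587 and 1629 (mdx) and 1799 and 1828 (mdx/Ripk3mKO). Its mdx libraries were the lowest, at 0.17 ± 0.06 in mdx/Ripk3mKO against mdx (SE; limma, adjusted p = 0.263). The 12 RNA polymerase I genes had medians of -0.01, -0.0005 and -0.01, with Polr1d at 0.17 ± 0.07 and Taf1a at -0.28 ± 0.12 in mdx/Ripk3mKO against mdx (SE; limma, adjusted p = 0.349 and 0.395).

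Upstream, the 19 genes of the mTORC1 pathway and TOP mRNA control had medians of -0.02, 0.05 and 0.03. Akt1s1, an inhibitory mTORC1 subunit, had 1450 and 1399 (wt), 1402 and 1382 (mdx) and 1620 and 1556 (mdx/Ripk3mKO), at 0.19 ± 0.06 against mdx (SE; limma, adjusted p = 0.236). Lamtor1, which anchors mTORC1 at lysosomes, was at 0.16 ± 0.07 in the same comparison, and Tbc1d7, a subunit of the TSC complex that restrains mTORC1, at 0.30 ± 0.09 in mdx against wt (SE; limma, adjusted p = 0.356 and 0.555). Myc, a transcription factor that drives ribosome genes, had 2036 and 1975 (wt), 2029 and 1855 (mdx) and 1762 and 2031 (mdx/Ripk3mKO), so its groups overlapped.

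Mitochondrial ribosomal proteins, which build the separate ribosome of the organelle, made a second family for comparison. The 77 genes summed to 3036 to 3158 CPM. Their medians were 0.001, 0.05 and 0.04, with 39, 56 and 59 of 77 higher. The cytosolic family had 0.01, 0.03 and 0.05, with 45, 47 and 65 of 75 higher, and the difference between the families was not tested. Mrpl34 had 307 and 315 scaled counts (wt), 229 and 277 (mdx) and 293 and 337 (mdx/Ripk3mKO), a log2 fold change of -0.30 ± 0.12 in mdx against wt (SE; limma, adjusted p = 0.668).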

How the data were processed

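The deposited table holds 1 whole number per gene and library. Tools named in the submitters' processing notes, without roles, are featureCounts 1.6.3, STAR 2.6.1d, Trimmomatic 0.36 and DESeq2 1.18.1, with the build mm10; how strand and reads fitting several places were counted was not given in the sources used here. The values behave as read counts scaled between libraries and rounded, so the deposited values were treated as a score and not tested as counts, in place of the count model planned. Skipped and doubled whole numbers gave estimated divisors of 0.91 and 0.871 (wt), 0.921 and 0.955 (mdx), 1.20 and 1.21 (mdx/Ripk3mKO), so the last were deepest and depth and that group go together.

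Limma 3.58.1 (R 4.3.3, trend and robust fitting) was run on log2(scaled count + 1) over 6 libraries with group as the only term and 3 residual degrees of freedom. Fold changes are on that scale, which understates changes of low genes. The test took in genes that reached 10 in 2 or more libraries. The fit was tested on simulated data for mdx against wt (14077 genes), where it found 74.8% of genes changed 1.25-fold and 93.2% of those changed 1.5-fold. Only genes above a minimum mean were changed there, and the spread of each gene came from a smooth curve over the mean. No shift of a whole library was simulated, so these shares may be too high for the real libraries. CPM values are scaled counts relative to the library total. Gene models were GENCODE M21, and start windows came from RefSeq (GRCm38.p6).

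The members and lists were chosen with earlier results of these data known. Genes named are the 6 members with the smallest unadjusted p in each comparison, the 5 highest and 5 lowest per kb, members of role lists, and up to 3 genes with the smallest p in each companion list; genes named for the steadiest value, the widest ratio or a motif were chosen after their values were seen. The results of some genes under these rules are not reported here, and counts, medians and sums include them.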

Additional observations from a re-analysis of the deposited data

How the results depend on the processing

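No ribosomal protein gene passed the threshold in any alternative run: another pseudocount, no filter, scaling to the library total, quantile normalization, no trend or robust fitting, only the groups compared, correction for GC content and exon length, and each library left out in turn. The smallest adjusted p of a member over all of them was 0.126 (limma). The median of mdx against wt, 0.0135, changed sign to -0.00496 under the GC and length correction and was 0.00716 when scaled to the library total. The median of mdx/Ripk3mKO against mdx, 0.0335, was 0.0157 with quantile normalization, and that of mdx/Ripk3mKO against wt, 0.0457, was 0.0267 under the GC and length correction. The settings for filter, trend and block, and leaving out a library of the third group, cannot move a fold change. With a library left out the medians ranged from 0.0021 to 0.031 in mdx against wt, from 0.021 to 0.049 in mdx/Ripk3mKO against mdx, and from 0.022 to 0.070 in mdx/Ripk3mKO against wt. The mean shares of 2.90%, 2.91% and 2.995% (wt, mdx, mdx/Ripk3mKO) became 3.05%, 3.07% and 3.15% with mitochondrially encoded genes and ribosomal RNA left out of the total. They became 3.07%, 3.08% and 3.17%, by construction, with the 4 genes outside the rule, the 6 paralogs and the 41 named pseudogenes added. Genes called among all tested moved more: from 1 to 103 with only the groups compared, and to between 0 and 103 with a library left out, in mdx against wt; from 29 to 1 with no trend or robust fitting, 2 with only the groups compared, and between 1 and 278 with a library left out, in mdx/Ripk3mKO against mdx; and from 0 to 20 without mdx/Ripk3mKO library 2 in mdx/Ripk3mKO against wt. The cause was not tested. The difference of library 1 and library 2 in wt correlated with that in mdx/Ripk3mKO at -0.011 over all genes. This value shows no deviation shared by replicate number, and it cannot tell whether same-numbered libraries were prepared as pairs. A replicate block left the median of mdx/Ripk3mKO against wt at 0.0457 and 0 members called. Counting error limits Rpl23a, with 12 to 24 scaled counts.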
